A study of Homo sapiens with 16 samples.

Results

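Transcription factor genes of colon and gut epithelium, together with PROX1, were read for p65 binding in colorectal cancer cells. The 8 genes CDX1, CDX2, HNF4A, FOXA1, FOXA2, FOXA3, GATA6 and PROX1 were chosen by name, out of 19962 protein-coding genes on chromosomes 1 to 22 and X. For each of them every 200-bp bin was read from 60 kb upstream to 60 kb downstream of the gene on GRCh38, which gave 5887 bins over 1177.4 kb. A bin was listed for a group when its mean signal in that group was at least 2 and at least 4 times the signal of the group's own input.

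The libraries were p65 ChIP-Seq of HT29 and SW480, 2 established colorectal cancer lines, each described in the labels as stably transfected, either with ERβ or with empty vector (mock), and kept in blasticidin. All cells had received TNFα at 30 ng/ml for 30 min before crosslinking with DSG and formaldehyde, so no library speaks of p65 in unstimulated cells. Each of the 4 groups, HT29 mock, HT29 ERβ, SW480 mock and SW480 ERβ, held 3 ChIP libraries, which the methods call biological replicates, and 1 input. ERβ was exogenous in both lines, the methods place the inputs of the ERβ groups in a separate deposit, and the labels put the antibody and TNFα on the inputs too.

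The p65 protein, encoded by RELA, is the transactivating subunit of the NFκB dimers that enter the nucleus after TNFα. CDX1 and CDX2 are homeobox factors that set intestinal identity, HNF4A is a nuclear receptor of the enterocyte program, FOXA1, FOXA2 and FOXA3 are forkhead factors able to open closed chromatin in endoderm, and GATA6 is a zinc finger factor of the gut epithelium. PROX1 is a homeobox factor that is best known in lymphatic endothelium and that is often turned on in colorectal tumors.

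The deposited signal is coverage per base after scaling to a common total, and depth cannot be read back from it, so no counting interval could be given. Signal in ESR2 coding exons was 4.23 to 7.37 times that in ESR2 introns in the HT29 ERβ libraries and 1.08 to 1.35 times in HT29 mock. The same ratio was 2.43 to 3.10 in SW480 ERβ and 1.31 to 1.63 in SW480 mock, so the labels of all 12 ChIP libraries matched the construct. Replicate 1 of both HT29 groups stood apart, with a mean of 3.14 and 2.72 over all tested bins against 1.40 to 1.72 in the other HT29 libraries. Replicate 1 of SW480 ERβ was low, at 1.94 against 3.01 and 3.24.

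Listed bins lay near 6 of the 8 genes, and at 48.2% of all protein-coding genes by the same rule. They numbered 12 and formed 8 regions. SW480 ERβ held 10 of them, at CDX2, FOXA2, FOXA3 and PROX1, while 43.0% of all genes and 0.0632% of all bins were listed in that group. HT29 mock held 2, at FOXA1 and GATA6 (30.7% of genes, 0.0404% of bins). HT29 ERβ held 1, at PROX1 (23.2% of genes, 0.0268% of bins), and SW480 mock held 1, at CDX2 (11.3% of genes, 0.00989% of bins). No bin was listed near CDX1 or HNF4A. Bins listed in any group made up 0.0829% of all bins of the genome. The 2 listed bins nearest to the limits were those of the PROX1 promoter in SW480 ERβ, at 2.07 and 2.15. Just outside were a FOXA1 bin in HT29 mock at 1.98 and an HNF4A bin in SW480 ERβ at 2.51 with 3.93 times input.

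**Figure D1:**
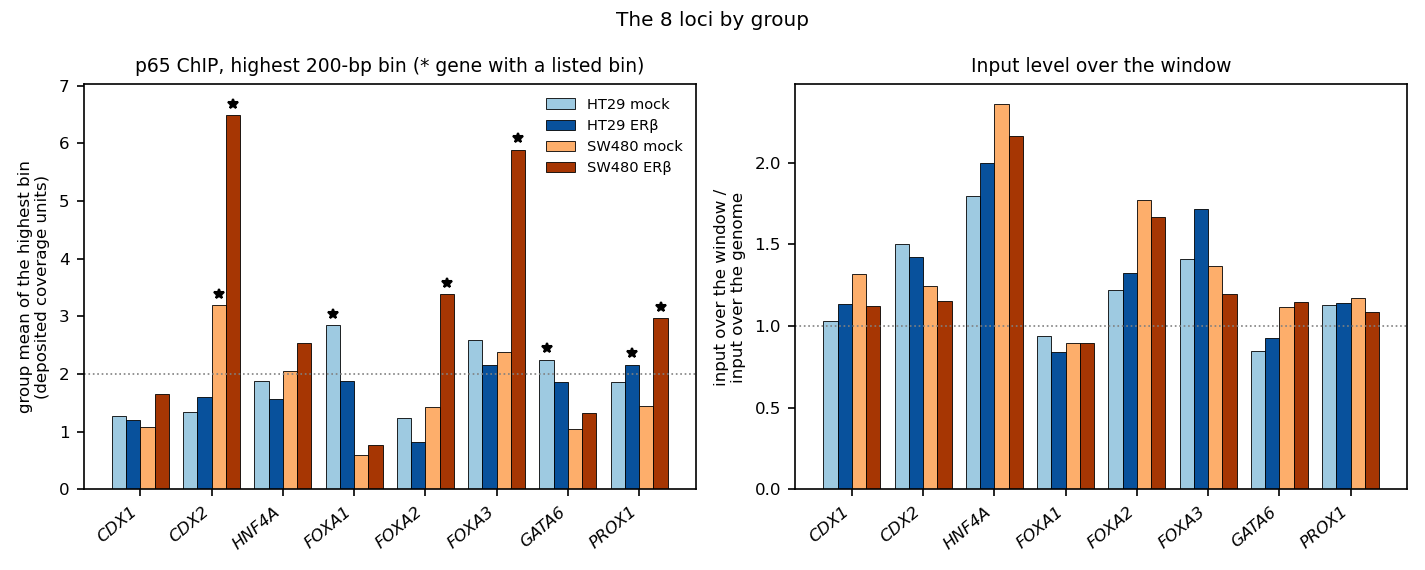
Left, the highest group mean of any 200-bp bin (coverage units) at each of the 8 loci in the 4 groups, with a star where the gene had a listed bin and a dotted line at the mean limit of 2. Right, the input signal over each locus divided by the input signal over the genome, where HNF4A stood highest in every group.

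The highest group mean at the 8 loci, 6.48 in SW480 ERβ at CDX2, lay below those of 6 known NFκB targets in that group. It stood against 27.5 at NFKBIA, which encodes the inhibitor IκBα, and 25.2 at BIRC3, which encodes an inhibitor of apoptosis. At 3 other NFκB targets, CXCL1, CXCL8 and CCL20, which encode chemokines, the highest bin in SW480 ERβ was 13.1, 6.90 and 9.84, and at TNFAIP3, which encodes the feedback enzyme A20, it was 23.6. The margin to CXCL8 was within the spread, since CXCL8 had 6.90 ± 2.77 (SD, n = 3), and in replicate 1 the CDX2 bin, at 5.13, stood above it, at 4.58. These 6 targets are named by the study as bound in these libraries, and all 6 had a listed bin in every group.

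Differences between groups were tested on bins chosen without regard to group, those with a mean over the 12 ChIP libraries of at least 1 and of at least 2 times the mean input. There were 19580 such bins in the genome and 21 near the 8 genes, among them all 12 listed bins. Each was fitted with limma on log2(signal + 1), a scale that understates changes of low bins, and p-values were adjusted by Benjamini-Hochberg over all 19580 bins, with calls made at an adjusted p under 0.05. A bin that passes this filter only through the group where it is high had to differ, so the filter was read again with the higher groups at the level of the other. With SW480 ERβ at its mock level 14 of the 21 bins still passed, and with the higher line at the level of the other 6 of 14 and 2 of 7. Where a difference is given below for a bin that did not, it is a description with no p. Between lines these bins lay at the PROX1 promoter, FOXA2, CDX2, FOXA1, GATA6, HNF4A and, with 1 bin, FOXA3. For ERβ in SW480 they were those of CDX1, HNF4A and the PROX1 promoter and the second FOXA2 bin. To these come chr13:27966201-27966400 in CDX2 and chr18:22175201-22175400 in GATA6. The difference of the ERβ effects is given with no p at any of these bins.

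With ERβ in SW480, 5 of the 21 bins were called higher and none lower, against 20.7% of all tested bins called higher. The 5 were the paired bins of FOXA3 and of FOXA2 and the only tested bin near CDX1. Of these 5, the FOXA3 bins and the leading FOXA2 bin passed the filter with SW480 ERβ at its mock level too. The median difference was 0.46 over the 21 bins and 0.48 over all tested bins. With ERβ in HT29 limma called 0 of the 21 bins, and 0 had an unadjusted p under 0.05. In the whole genome 1 bin was called in HT29 (0.00511%) and 296 had an unadjusted p under 0.05. The ERβ effect in SW480 minus that in HT29 was called at 0 of the 21 bins, against 7.82% of all tested bins. An unadjusted p under 0.05 was found at 7 of the 21 bins and at 5790 of all 19580. Within each line, libraries of the same number correlated, a pairing read from these data and not from the design. In HT29, numbers 2 and 3 were not told apart. With the replicate number within each line as a block, limma called 11 of the 21 bins higher in SW480 ERβ (54.4% of all tested bins). It called 7 for the difference between lines (47.3%). In HT29 it then called 0 of the 21 bins and 7 of all tested bins, 2 higher and 5 lower. The lack of calls in HT29 does not show equal binding with and without ERβ.

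Between lines the calls near the 8 genes are a description. All calls between the mock groups rest on bins that passed the filter through 1 line. So do all calls between the ERβ groups but the 2 at FOXA3. SW480 mock was called higher than HT29 mock at 4 bins and lower at 5, against 6.92% and 26.3% of all tested bins. Of the 4 higher bins 2 were at the PROX1 promoter and 2 in CDX2, and of the 5 lower bins 2 were at FOXA1, 2 in GATA6 and 1 past the end of FOXA3. SW480 ERβ was called higher than HT29 ERβ at 9 bins and lower at 3, against 30.8% and 10.2% of all tested bins and 41.0% in either direction. The 9 lay at CDX2 (3), the PROX1 promoter (2), FOXA2 (2) and FOXA3 (2), and the 3 at FOXA1 (2) and GATA6 (1). Without HT29 mock replicate 1, 3 of the 21 bins were higher and 3 lower in SW480 mock, and lower calls over all bins went from 5144 to 2733. Without SW480 mock replicate 3, higher calls over all bins went from 1355 to 873, with 4 of the 21 bins higher, and without replicate 1 of all groups they went to 2627, with 5 higher. Between the ERβ groups, lower calls over all bins went from 1993 to 1168 without HT29 ERβ replicate 1, with 10 of the 21 bins higher and 2 lower. Without replicate 1 of all groups, higher calls over all bins went from 6040 to 11411, with 14 of the 21 bins higher and 3 lower. Scaling mattered for these splits. Quantile normalization moved the median over all tested bins from 0.48 to -0.037 for ERβ in SW480. It left 0 of the 21 bins and 953 of all 19580 called there, and calls over all bins went from 100% higher to 81.3% higher. Under it SW480 mock against HT29 mock went from a median of -0.32 to 0.013 and from 20.8% to 50.3% of calls higher. There 9 of the 21 bins were higher and 4 lower, beside 4674 and 4613 of all 19580. SW480 ERβ against HT29 ERβ went from 0.33 to -0.0037 and from 75.2% to 50.2%, with 9 higher and 5 lower (4871 and 4841 of all 19580). For the difference of the ERβ effects quantile normalization moved the median from 0.62 to -0.025 and calls from 100% to 89.8% higher.

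**Figure D2:**
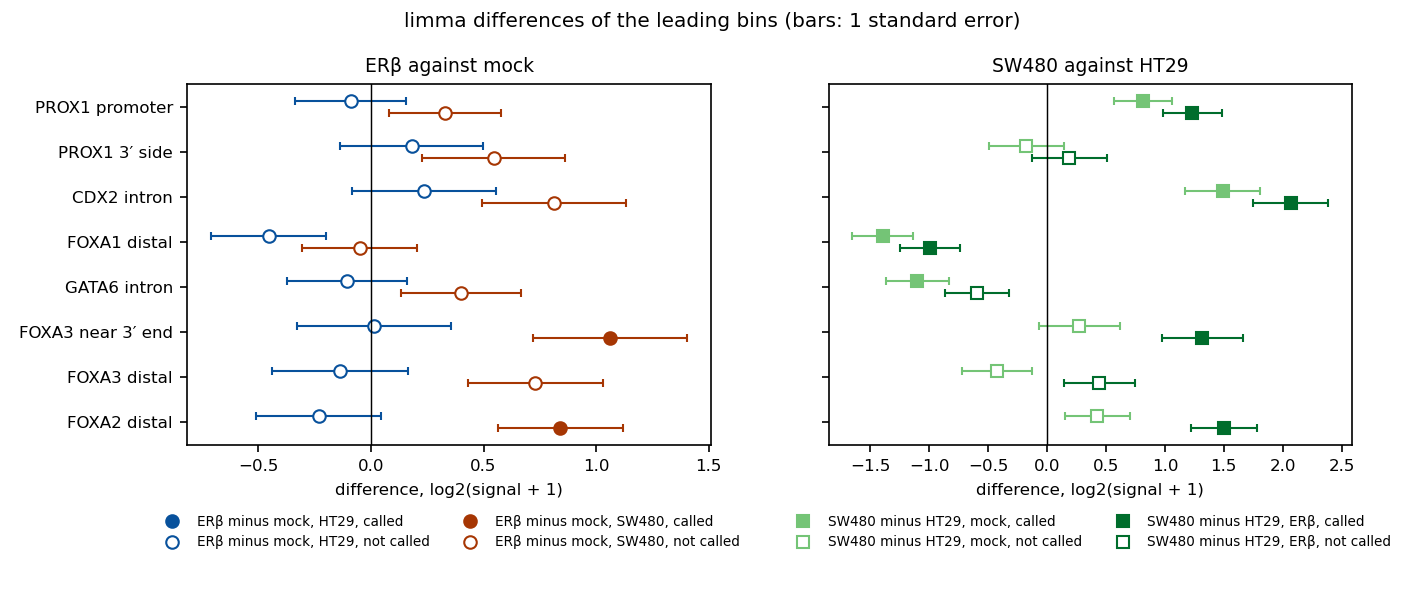
Difference in log2(signal + 1) at the leading bin of each of the 8 regions, with 1 standard error from limma, for ERβ against mock in each line (left) and SW480 against HT29 within mock and within ERβ (right). Filled marks were called at an adjusted p under 0.05. The FOXA3 bin near the 3′ end and the FOXA2 bin were called for ERβ in SW480, and the filled marks of CDX2, FOXA1, GATA6, FOXA2 and the PROX1 promoter between lines are at bins that passed the filter through 1 line.

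CDX2 held the highest p65 signal of the 8 loci, and it was listed in the SW480 groups alone. The region spanned chr13:27965801-27966200 and lay in an intron of CDX2, 3.2 kb downstream of the gene start at its leading bin. That bin is shown because it is the tallest of the 12, with its match to the κB consensus (GGAGCTCCCC) in capitals, plus strand of GRCh38, chr13:27966001-27966200.
CDX2 intron: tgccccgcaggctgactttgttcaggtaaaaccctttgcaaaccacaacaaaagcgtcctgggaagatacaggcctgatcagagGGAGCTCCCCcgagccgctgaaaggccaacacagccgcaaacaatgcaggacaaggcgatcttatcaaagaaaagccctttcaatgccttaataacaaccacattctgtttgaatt

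Signal in the CDX2 bin was 0.33, 0.49 and 0.65 in HT29 mock and 1.29, 0.567 and 0.49 in HT29 ERβ. It was 2.59, 3.60 and 3.39 in SW480 mock and 5.13, 8.68 and 5.64 in SW480 ERβ. Every SW480 library stood above every HT29 library, and the SW480 ERβ libraries stood above the SW480 mock libraries with no overlap. The means were 3.19 ± 0.534 (SD, n = 3) in SW480 mock, 5.45 times input, and 6.48 ± 1.92 (SD, n = 3) in SW480 ERβ, 11.4 times input, while HT29 mock and HT29 ERβ stood at 0.871 and 1.28 times input. SW480 mock exceeded HT29 mock by 1.49 ± 0.32 (SE) on the log2 scale and SW480 ERβ exceeded HT29 ERβ by 2.07 ± 0.32. Input over the CDX2 locus was lower in SW480 than in HT29, at 0.830 times in mock and 0.810 times in ERβ cells. The difference between ERβ and mock in SW480 was 0.81 ± 0.32 and missed the threshold (limma adjusted p = 0.0522). It passed with the replicate number within each line as a block (adjusted p = 0.000438), and without HT29 mock replicate 1 (0.0339), HT29 ERβ replicate 1 (0.0281) or SW480 ERβ replicate 1 (0.0212). A pseudocount of 2 (0.0343), no trend (0.0342) and a fit of only the groups compared (0.0351) also brought it under the threshold, as did leaving out replicate 1 of all groups (0.00285). In the other 16 settings, quantile normalization among them, it was not called. The ERβ effects of the lines differed by 0.58 ± 0.45, and by 0.87 without replicate 1 of all groups.

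The second CDX2 bin, 200 bp closer to the 3′ end of the gene, was listed only in SW480 ERβ, with 1.88, 1.74 and 3.31. Its values in SW480 mock were 1.49, 1.43 and 1.65, below all of those. The difference of 0.36 ± 0.27 was not called by limma (adjusted p = 0.299).

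CDX1, the paralog of CDX2, had no listed bin, and its only tested bin (chr5:150208601-150208800) lay 24.1 kb past the end of the gene, in an intron of the amino acid transporter gene SLC6A7. Signal in that bin was 0.61, 0.39 and 0.442 in SW480 mock and 1.00, 1.49 and 2.45 in SW480 ERβ, with no overlap. The HT29 libraries ranged from 0.607 to 1.82, and their mock and ERβ values overlapped. ERβ against mock in SW480 gave 0.80 ± 0.26 (SE) on the log2 scale, and 0.40 under quantile normalization. Without SW480 ERβ replicate 3 it was 0.59. The ERβ effects of the lines differed by 0.91 ± 0.36.

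HNF4A had no listed bin, and it carried the most input DNA of the 8 loci. Its highest bin mean was 2.05 in SW480 mock and 2.53 in SW480 ERβ. These passed the mean limit but stood at only 1.08 and 2.00 times input. Input over its window was 1.80 times the genome in HT29 mock, 2.00 in HT29 ERβ, 2.36 in SW480 mock and 2.16 in SW480 ERβ. Its single tested bin (chr20:44449201-44449400), in an intron of the long noncoding gene LINC01620 and 16.5 kb past the end of HNF4A, had 2.00, 1.74 and 1.51 in HT29 mock and 2.21, 1.43 and 0.74 in HT29 ERβ. In SW480 it had 1.3, 1.02 and 0.803 in mock and 1.28, 3.24 and 3.01 in ERβ. The lowest SW480 ERβ library fell within the mock range, and the other two lay above every other library. ERβ against mock in SW480 gave 0.74 ± 0.30, and 1.02 without SW480 ERβ replicate 1. The ERβ effects of the lines differed by 0.94 ± 0.42. At the annotated HNF4A starts, 45.5 kb apart, promoter signal stood between 0.583 and 1.35 in the 4 groups and between 0.969 and 1.64 times input.

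Of the 3 forkhead genes, FOXA1 was listed in HT29 mock alone, and FOXA2 and FOXA3 in SW480 ERβ alone. FOXA3 carried signal in HT29 too, at 4.36 and 5.37 times input in HT29 mock at its 2 regions, under the limit on the mean. The FOXA1 bin (chr14:37547001-37547200) lay 42.5 kb past the end of FOXA1 and inside an untranslated part of exon 13 of the neighboring gene MIPOL1. The 30 bases around its κB consensus match (in capitals, plus strand, chr14:37547071-37547100) are shown because this is the tallest bin of the HT29 groups.
FOXA1 distal: tgttagaagtGGGACACTCCaaccacattc

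Signal in the FOXA1 bin was 5.29, 1.42 and 1.81 in HT29 mock and 3.68, 1.05 and 0.736 in HT29 ERβ. It was 0.466, 0.28 and 0.25 in SW480 mock and 0.19, 0.22 and 0.457 in SW480 ERβ, at 1.19 and 0.852 times input. HT29 mock stood at 7.54 times its input of 0.377 and HT29 ERβ at 10.7 times its input of 0.17. With a mean of 1.82, HT29 ERβ was under the mean limit only. Every HT29 library lay above every SW480 library, and mock and ERβ overlapped within each line. The log2 difference of SW480 from HT29 was -1.40 ± 0.26 (SE) in mock and -0.99 ± 0.26 in ERβ cells. Input over the FOXA1 window hardly differed, with 0.955 times as much in SW480 mock as in HT29 mock. The listing in HT29 mock rested on replicate 1, without which 0 bins of the 8 loci were listed in that group, and the difference in ERβ cells was -0.56 without HT29 ERβ replicate 1.

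A further FOXA1 bin (chr14:37567201-37567400), in an intron of MIPOL1, just missed the limits. It held 3.63, 1.42 and 0.895 in HT29 mock and 2.81, 1.45 and 1.35 in HT29 ERβ. SW480 libraries ranged from 0.14 to 0.382, below all of them.

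FOXA2 was listed in SW480 ERβ alone, over chr20:22531201-22531600, 49.5 kb past the end of the gene at its leading bin and outside any annotated gene. The leading bin is shown because it was called higher with ERβ in SW480 with no overlap of libraries, with its κB match, GGGGAGTCCC in capitals, found on the minus strand in this plus-strand sequence of chr20:22531401-22531600.
FOXA2 distal: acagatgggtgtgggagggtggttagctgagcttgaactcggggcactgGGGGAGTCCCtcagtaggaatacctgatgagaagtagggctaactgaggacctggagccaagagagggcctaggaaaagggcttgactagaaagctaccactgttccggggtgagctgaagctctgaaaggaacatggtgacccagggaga

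The FOXA2 leading bin had 0.805, 0.995 and 0.60 in HT29 mock and 0.498, 0.74 and 0.36 in HT29 ERβ. It had 1.56, 1.46 and 1.22 in SW480 mock and 2.39, 3.67 and 4.09 in SW480 ERβ. The 3 SW480 ERβ libraries lay above all other libraries, and SW480 mock lay above HT29. The mean of 3.38 ± 0.885 (SD, n = 3) in SW480 ERβ was 5.46 times input, and that of 1.41 ± 0.175 (SD, n = 3) in SW480 mock was 2.18 times input. HT29 mock stood at 2.19 times input, as high as SW480 mock, and HT29 ERβ at 1.57 times. The rise with ERβ in SW480 was 0.84 ± 0.28 on the log2 scale (limma adjusted p = 0.0192), beside a median of 0.48 over all tested bins. The adjacent bin differed by 0.89 ± 0.27. SW480 ERβ exceeded HT29 ERβ by 1.5 ± 0.28, and input over the locus was 1.26 times as high in SW480 as in HT29 in ERβ cells and 1.46 times in mock, whose part in the differences between lines was not tested.

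The FOXA2 call for ERβ in SW480 did not survive the loss of most single SW480 libraries. Without SW480 mock replicate 1, 2 or 3 the limma adjusted p was 0.0573, 0.0618 and 0.0734, and without SW480 ERβ replicate 2 or 3 it was 0.0939 and 0.119, while the difference stayed between 0.72 and 0.89. Quantile normalization gave 0.20 (0.65). SW480 mock exceeded HT29 mock by 0.43 ± 0.28. The ERβ effect in SW480 minus that in HT29 was 1.07 ± 0.39, given as a description because the bin passed the filter through SW480.

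FOXA3 held 2 regions, both listed in SW480 ERβ alone. The taller, chr19:45876601-45877000, began 2.9 kb past the end of FOXA3 between genes, and the nearest annotated coding start was that of IRF2BP1, which encodes a transcriptional corepressor. It is shown, plus strand, chr19:45876601-45876800, as the bin with the largest rise with ERβ among the 8 regions, its κB match GGGGAATTCC in capitals.
FOXA3 near 3′ end: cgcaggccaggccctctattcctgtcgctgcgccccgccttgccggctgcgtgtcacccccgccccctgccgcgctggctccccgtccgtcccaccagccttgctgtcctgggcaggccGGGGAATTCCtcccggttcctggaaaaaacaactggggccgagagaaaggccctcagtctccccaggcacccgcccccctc

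Signal in this FOXA3 bin was 2.21, 1.23 and 1.53 in HT29 mock, 1.91, 2.12 and 1.05 in HT29 ERβ, 0.89, 2.77 and 3.48 in SW480 mock and 3.35, 7.13 and 7.17 in SW480 ERβ. The lowest SW480 ERβ library fell just under the highest SW480 mock library, and the HT29 groups overlapped. Means in SW480 were 2.38 ± 1.34 (SD, n = 3) in mock, 2.54 times input, and 5.89 ± 2.19 (SD, n = 3) in ERβ, 12.3 times input. The inputs differed too, with 0.936 in SW480 mock and 0.48 in SW480 ERβ at this bin. The rise with ERβ in SW480 was 1.06 ± 0.34 on the log2 scale (limma adjusted p = 0.017), and 0.88 ± 0.31 in the adjacent bin (adjusted p = 0.0321). SW480 ERβ was also higher than HT29 ERβ by 1.32 ± 0.34 (adjusted p = 0.000704), with 0.695 times as much input over the locus in SW480. The mock groups of the lines did not pass the test (0.27 ± 0.34, limma adjusted p = 0.57), though they did under quantile normalization (0.64, 0.0149) and without replicate 1 of all groups (0.79, 0.00701). The call for ERβ in SW480 was lost without SW480 mock replicate 1 (0.69, adjusted p = 0.267) and without SW480 ERβ replicate 2 or 3 (0.91 in each case, adjusted p = 0.124), and under quantile normalization (0.35, 0.431). The ERβ effects of the lines differed by 1.05 ± 0.49 (adjusted p = 0.135), a difference called with the block within lines (0.00229), without SW480 ERβ replicate 1 (0.0369) and without replicate 1 of all groups (0.0262).

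The far FOXA3 region (chr19:45925601-45925800) lay 51.9 kb past the gene end, with NANOS2, a germ cell gene, as the nearest coding start. Overlapping κB matches there, GGGAATTTCC and GGAATTTCCC, lay 1 base apart. Signal was 3.15, 1.19 and 1.3 in HT29 mock and 1.65, 1.3 and 1.57 in HT29 ERβ. It was 0.732, 1.84 and 0.755 in SW480 mock and 1.41, 3.31 and 2.78 in SW480 ERβ. Libraries of the 4 groups overlapped. The SW480 difference was 0.73 ± 0.30 (limma adjusted p = 0.0637), which passed the threshold with the block within lines (0.00143) and without replicate 1 of HT29 mock (0.0311), HT29 ERβ (0.0344), SW480 ERβ (0.0167) or all groups (0.00261), and in a fit of only the groups compared (0.032). In the other 17 settings it was not called. The ERβ effects of the lines differed by 0.87 ± 0.42 (adjusted p = 0.154, with the block 0.00933). A further FOXA3 bin, chr19:45883001-45883200, was not listed in any group. It had 4.13, 1.77 and 1.86 in HT29 mock and 0.78, 1.09 and 1.25 in SW480 mock, with no overlap and a log2 difference of -0.76 ± 0.30. The ERβ groups overlapped, with 3.10, 1.38 and 1.97 in HT29 and 0.705, 1.76 and 2.11 in SW480.

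GATA6 was listed in HT29 mock alone, in an intron of the gene 5.9 kb downstream of its start (chr18:22175401-22175600), a bin that also overlaps an exon of an unnamed long noncoding RNA. A κB match, read on the minus strand and written GGAATGCCCC on the plus strand, straddled the 5′ edge of the bin, and the bin itself held none. Signal was 4.20, 1.35 and 1.18 in HT29 mock, 2.61, 1.94 and 1.01 in HT29 ERβ, 0.25, 0.34 and 0.61 in SW480 mock and 0.369, 0.359 and 2.33 in SW480 ERβ. HT29 ERβ, with a mean of 1.85 at 4.21 times input, was under the mean limit only. All HT29 libraries lay above all SW480 mock libraries, while SW480 ERβ replicate 3 reached into the HT29 range. The log2 difference of SW480 mock from HT29 mock was -1.10 ± 0.27 (SE), although SW480 mock had 1.32 times as much input over the locus. In ERβ cells the difference was -0.60 ± 0.27, and -1.02 without SW480 ERβ replicate 3. The adjacent bin 5.7 kb downstream of the start, not listed, had 3.22, 1.15 and 1.11 in HT29 mock, 1.76, 1.64 and 1.01 in HT29 ERβ and 0.24 to 0.92 over the SW480 libraries. As at FOXA1, the listing in HT29 mock rested on replicate 1.

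PROX1 had 2 regions with unlike patterns over the lines. The first, chr1:213982601-213983000, lay at its promoter, with the leading bin 0.48 kb before the gene start and in an intron of the antisense gene PROX1-AS1. The MANE Select start of PROX1, the reference transcript, is a further 4.8 kb downstream. The second, chr1:214044601-214044800, lay 3.2 kb past the 3′ end of the gene, outside any annotated gene. The bins are shown as the pair that contrasts a κB-matched promoter bin with a bin that held no exact match. Only exact matches to the consensus were counted, so a bin without one may still hold a κB site. Capitals mark κB matches, of which the promoter bin held GGAGATTTCC and, overlapping each other, GGGAGTCCCC and GGAGTCCCCC.
PROX1 promoter: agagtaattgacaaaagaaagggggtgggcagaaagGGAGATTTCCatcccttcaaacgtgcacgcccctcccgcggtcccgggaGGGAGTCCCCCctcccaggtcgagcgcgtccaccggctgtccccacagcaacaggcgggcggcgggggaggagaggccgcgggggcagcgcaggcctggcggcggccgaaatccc
PROX1 3′ side: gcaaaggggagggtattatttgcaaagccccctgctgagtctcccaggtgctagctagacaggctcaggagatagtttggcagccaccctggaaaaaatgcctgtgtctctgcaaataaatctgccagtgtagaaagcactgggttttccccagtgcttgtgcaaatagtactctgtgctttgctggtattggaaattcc

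At the PROX1 promoter bin, signal was 0.49, 0.37 and 0.284 in HT29 mock and 0.35, 0.339 and 0.20 in HT29 ERβ. It was 1.53, 1.57 and 1.18 in SW480 mock and 1.47, 2.32 and 2.44 in SW480 ERβ. Every SW480 library lay above every HT29 library, and the SW480 groups overlapped. SW480 exceeded HT29 by 0.81 ± 0.25 (SE, log2 scale) in mock and 1.23 ± 0.25 in ERβ cells. Input over the locus was 1.04 and 0.952 times as high in SW480 as in HT29, in mock and in ERβ cells. At the bin itself input was 0.17 in HT29 mock and 0.35 in HT29 ERβ, which stood at 2.24 and 0.847 times input. Over its own input, HT29 mock was thus not below SW480 mock. ERβ against mock in SW480 gave 0.33 ± 0.25, with 0.51 without replicate 1 of all groups and -0.24 under quantile normalization. The promoter was listed in SW480 ERβ, at 5.21 times its input of 0.398, and stood at 1.99 times input in SW480 mock, where the input was 0.72. With the mean of both SW480 inputs, the 2 PROX1 promoter bins were no longer listed in SW480 ERβ. That left 8 instead of 10 bins of the 8 loci in that group.

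At the 3′ side of PROX1 all 4 groups carried signal. It was 3.09, 1.49 and 0.986 in HT29 mock, 2.91, 1.35 and 2.21 in HT29 ERβ, 0.847, 1.62 and 1.89 in SW480 mock and 0.738, 3.21 and 4.96 in SW480 ERβ. The 4 groups overlapped, and the spread within SW480 ERβ alone (SD 2.12 around a mean of 2.97) was wider than any difference between group means. The bin was listed in HT29 ERβ at 5.39 times input and in SW480 ERβ at 13.3 times input, and in HT29 mock it stood at 1.86 and 4.10 times input, under the mean limit only. No comparison was called by limma. ERβ against mock gave 0.18 ± 0.32 in HT29 and 0.55 ± 0.32 in SW480 (adjusted p = 0.188), and SW480 against HT29 gave -0.18 ± 0.32 in mock (adjusted p = 0.697) and 0.19 ± 0.32 in ERβ cells (adjusted p = 0.667). The SW480 difference was 0.17 without SW480 ERβ replicate 3 (adjusted p = 0.786), the highest library. It was called without SW480 ERβ replicate 1 (1.05, adjusted p = 0.0153), without replicate 1 of all groups (0.86, 0.0024) and with the block within lines (0.0188). SW480 ERβ against HT29 ERβ was called without replicate 1 of all groups (0.87, 0.00144).

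**Figure D3:**
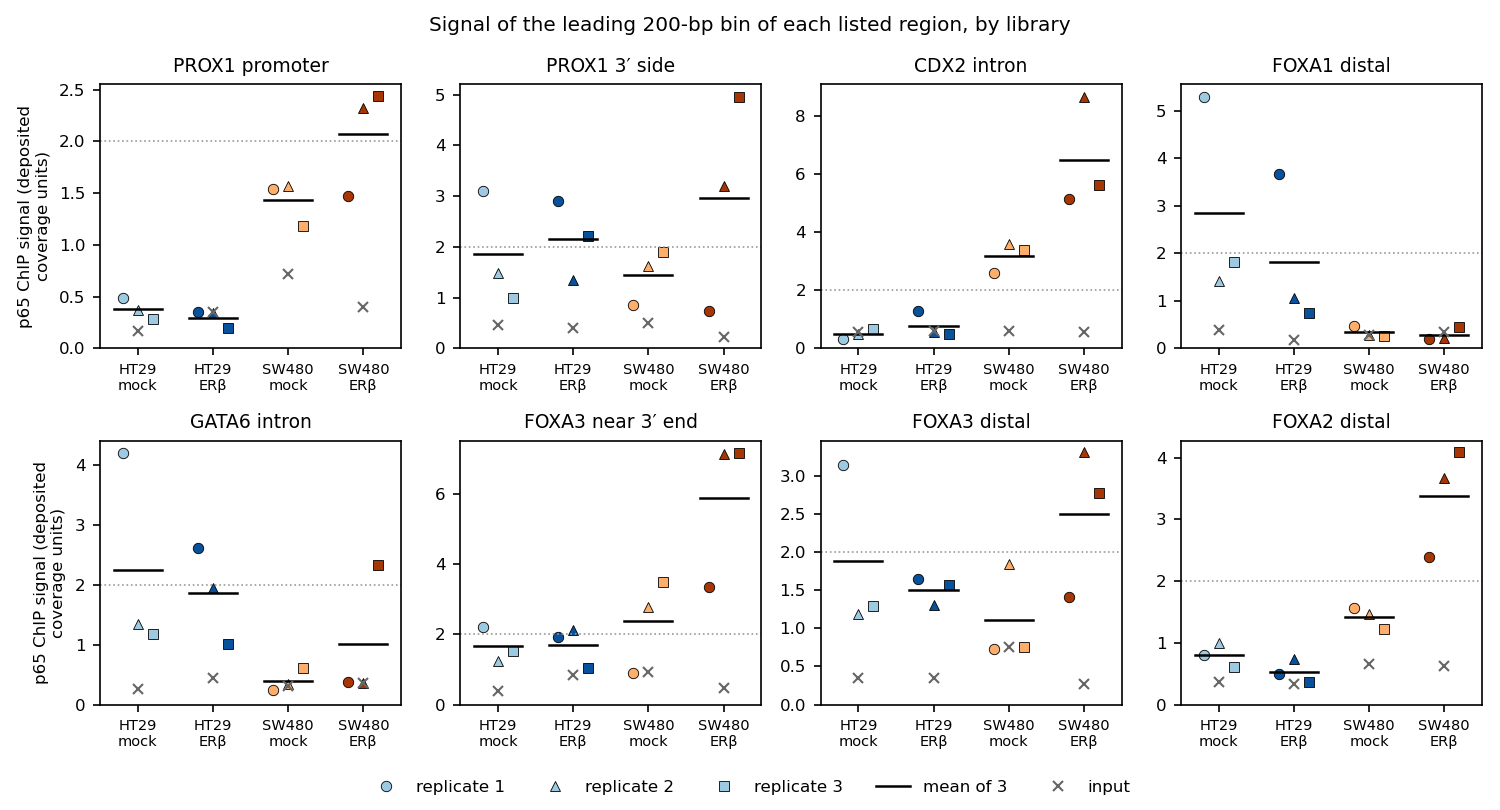
Signal (coverage units) of the leading bin of each region in the 12 ChIP libraries, marked by replicate, with the mean of 3 as a line, the group's input as a cross and the limit of 2 dotted. CDX2 separated the lines completely, from at most 1.29 in HT29 to at least 2.59 in SW480, and replicate 1 was the highest HT29 mock library at 6 of the 8 regions, all but CDX2 and FOXA2.

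**Figure D4:**
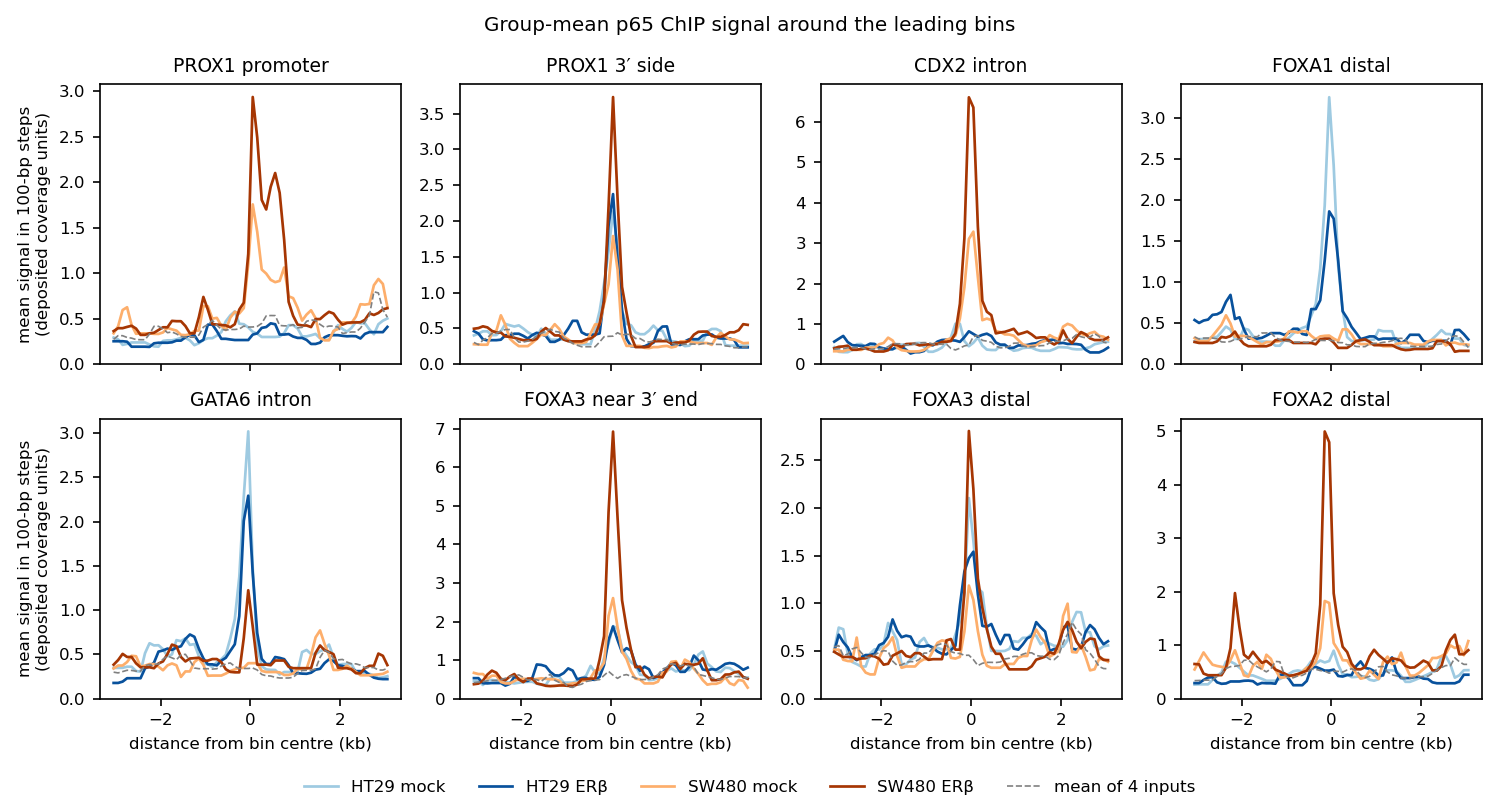
Group-mean signal in 100-bp steps from 3 kb before to 3 kb after the centre of each leading bin, with the mean of the 4 inputs dashed. The highest group mean stood within 200 bp of the centre at all 8 regions, while groups with little signal at a region could be highest elsewhere, and more than 1 kb away no group mean passed 1.22 except at FOXA2, where one step reached 1.97.

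Averaged over the 1 kb before and 100 bp after the gene start, the reference transcript's start and any start farther away, signal lay between 0.279 and 0.381 at CDX1, 0.399 and 0.532 at CDX2, 0.364 and 0.601 at FOXA1, and 0.696 and 1.03 at FOXA3. It reached 1.38 at FOXA2 and 0.946 at GATA6, at no more than 2.03 and 2.01 times input in any group. At HNF4A it reached 1.35, at no more than 1.64 times input. At the first PROX1 start it was 0.394, 0.334, 0.940 and 1.45 in HT29 mock, HT29 ERβ, SW480 mock and SW480 ERβ, and 3.21 times input in the last. The reference start of PROX1 had 0.493 in SW480 ERβ, 3.23 times its input. Of these starts, only the first PROX1 start held tested bins.

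Of the 12 listed bins, 6 held at least 1 match to the κB consensus on either strand, which is what 38.6% of all listed bins, 33.2% of all tested bins and 2.91% of all bins of the genome did. These 6 were the leading bins of 6 of the 8 regions, so that only the PROX1 3′ side and GATA6 had a leading bin with no match. The AP-1 consensus TGANTCA was in 0 of the 12 bins (11.7% of tested bins and 6.17% of all bins). It occurred just outside the regions of CDX2 (chr13:27965740-27965746), FOXA1 (chr14:37547331-37547337) and the far FOXA3 bin (chr19:45925814-45925820). The RUNX core TGTGGT was in 2 of the bins, in CDX2 on the minus strand at chr13:27966042-27966047 and chr13:27966182-27966187 and in the FOXA1 bin (13.8% of tested bins). The letters TGTTTAC of forkhead factors and AGATAA of GATA factors were in 1 bin each, the FOXA1 bin (4.47% and 7.44% of tested bins). Letters for HNF4 (CAAAGTNCA, 1.18%), CDX (TTTATGG, 2.21%) and the palindromic estrogen response element (0.0358%) were in none of the 12. A match gives letters in the reference and no evidence of a bound factor. Matching was exact, so the lack of a match does not show the lack of a site.

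Among 20 other intestinal transcription factor genes, 12 had a listed bin in at least 1 group, 11 of them in SW480 ERβ, 8 in HT29 mock and 6 in each of HT29 ERβ and SW480 mock. Their 98 tested bins gave 17 higher and 0 lower calls for ERβ in SW480 (20.7% higher over all tested bins) and 0 for ERβ in HT29. They gave 5 higher and 18 lower for SW480 mock against HT29 mock (6.92% and 26.3%), and 31 higher and 7 lower for SW480 ERβ against HT29 ERβ (30.8% and 10.2%). The difference of the ERβ effects was called at 6 of the 98 bins, against 7.82% of all tested bins. VDR, the vitamin D receptor gene, and HES1, a Notch target, exceeded all 8 members, with 18.1 and 12.1 in SW480 ERβ. EHF, an epithelial ETS factor gene, reached 10.7 in HT29 mock against 1.1 for SW480 mock.

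Over the 12 libraries, the genes whose highest bin within 60 kb ran most like that of each member with a listed bin were searched among 10819 genes. CDX1 and HNF4A, with no listed bin, were left out. The Pearson correlation is given as a description only, since all bins share the libraries and their scaling. CDX2 was most like C17orf100 (0.99), FOXA1 like TRPV4 (0.99), FOXA2 like SPN (0.98), FOXA3 like DYRK1A (0.96), GATA6 like C2CD6 (0.95) and PROX1 like LDHAL6B (0.92). The next for CDX2 were SLC2A6 and DGKG, for FOXA1 CASR and AKAP7, for FOXA2 ETS1 and ZMIZ1, for FOXA3 ANGPT1 and OSBPL7, for GATA6 BLM and ABCA1, and for PROX1 PROKR1 and SLC22A24.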

How the data were processed

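For p65 ChIP-Seq in HT29 and SW480 cells with and without ERβ, 16 libraries were used, 12 ChIP and 4 input. According to the methods, the authors mapped unique reads with STAR to hg38 and used HOMER. They deposited coverage signal per base for each library. The summed signal was nearly equal in all deposited tracks, which marks scaling to a common total, and stretches under 0.05 are left out. What 1 read adds to the signal could not be worked out from the values, so no count test was run and no depth is given beside a value. The study's own read statistics were not used here. The labels do not say whether replicates were separate cultures, so p-values measure the spread between these libraries.

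Coverage was averaged in 200-bp bins of a fixed grid. Genes came from GENCODE release 44 and sequences from the hg38 genome. Tests used limma 3.58.1 in R 4.3.3, with a mean-variance trend, all 12 ChIP libraries in 1 fit, a pseudocount of 1 and Benjamini-Hochberg adjustment, and were tested on simulated data. Binning used pysam 0.24.0, numba 0.67.0, pandas 2.3.3 and numpy 2.4.6 under Python 3.11.15, and plots were drawn with matplotlib 3.10.9. The 8 genes, the gene lists and the tests were chosen with earlier results of these data known. Regions were joined from listed bins at most 1 bin apart and named by the bin with the highest mean over the ChIP libraries. The 3 most similar genes of each member with a listed bin were named by correlation.

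Libraries of the same number correlated after the group means were removed, with 0.479, 0.179 and 0.194 for the 3 numbers in HT29 and 0.276, 0.118 and 0.179 in SW480, all above the limit of 0.1, while across lines values ran from -0.053 to 0.047. In HT29, mock 2 with ERβ 3 (0.205) and mock 3 with ERβ 2 (0.135) also passed it, so numbers 2 and 3 were not told apart there. By the limit, numbers were taken as pairs within a line, a hint from the data and not from the design, and the block within lines was added after the data were seen, as was the reading of the filter with the higher groups at the level of the other. Settings of limits, scaling, grid, pseudocount, input and omitted libraries were varied.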

Additional observations from a re-analysis of the deposited data

How the results depend on the processing

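The limits of the listing, single libraries and the scaling bounded these results, and no depth stands beside the values of low bins. The number of listed bins in HT29 mock went from 2 to 8 with a mean limit of 1.5, to 0 with a limit of 3 or with 2 of 3 libraries past both limits, and to 1 within 30 kb, and ran from 0 to 6 with a library left out. In HT29 ERβ it went from 1 to 5 with a limit of 1.5, to 0 with a limit of 3 or 6 times input, and from 0 to 4 with a library left out. In SW480 mock it went from 1 to 0 with 6 times input and to 2 on the shifted grid, and in SW480 ERβ from 10 to 5 with a limit of 3. The 5 bins called for ERβ in SW480 became 2 of 4 when tested bins needed a mean of at least 2 (1519 of all 6206). They became 0 under quantile normalization (953 of all 19580), 3 on the shifted grid (3999 of all 19446) and 8 with only the groups compared (6226 of all 19580). The replicate number as a block gave 11 within each line (10656 of all 19580) and 5 over both lines (3518 of all 19580). With libraries left out, calls ran from 0 to 11 (0 without SW480 ERβ replicate 3, 2 without replicate 2 or any SW480 mock library, 8 without replicate 1 of either HT29 group, 10 without SW480 ERβ replicate 1 and 11 without replicate 1 of all groups). Of all 19580 tested bins 4053 were called, and in the same order 1777, 1644 to 2976, 5514 and 5551, 7226 and 11229. With a mean of at least 2 only 4 of the 21 bins were tested. Calls between the mock groups then went from 9 to 1 (2278 of all 6206) and between the ERβ groups from 12 to 3 (2627 of all 6206). The block over both lines gave 8 and 12 (6154 and 7695 of all 19580). For the ERβ effects of the lines, 0 calls became 1 lower under quantile normalization (236 of all 19580, of which 24 lower). They became 1 higher on the shifted grid (1457 of all 19446) and 7 with the block within lines (9260 of all 19580). With libraries left out, calls ran from 0 to 7 (1 without HT29 mock replicate 2, 4 without HT29 ERβ replicate 1, 6 without SW480 ERβ replicate 1, 7 without replicate 1 of all groups), with 469 to 8974 of all tested bins called. The cause was not tested where a setting does not itself remove bins or libraries. Only values that had missed the threshold changed direction. Under quantile normalization ERβ against mock in SW480 became -0.24 at the PROX1 promoter and -0.061 at its 3′ side, and the difference of the ERβ effects -0.20 and -0.43 there and -0.17 at CDX2. At the PROX1 3′ side SW480 against HT29 became 0.20 in mock and -0.23 in ERβ cells, and ERβ against mock in HT29 became 0.063 at GATA6 and 0.047 at the far FOXA3 bin. On the shifted grid the latter comparison became -0.087 at the near FOXA3 bin. The ranges that follow are with a library, or replicate 1 of all groups, left out. ERβ against mock in HT29 ran from -0.048 to 0.47 at the PROX1 3′ side, -0.037 to 0.35 at CDX2, -0.33 to 0.29 at GATA6, -0.10 to 0.20 at the near FOXA3 bin, -0.30 to 0.16 at the far one, -0.35 to 0.039 at CDX1 and -0.41 to 0.027 at HNF4A. The -0.037 at CDX2 came without replicate 1 of all groups. ERβ against mock in SW480 ran from -0.14 to 0.076 at FOXA1, the latter without replicate 1 of all groups, and from -0.029 to 0.62 at GATA6. SW480 against HT29 at the PROX1 3′ side ran from -0.41 to 0.31 in mock and from -0.19 to 0.87 in ERβ cells, both upper ends without replicate 1 of all groups. The difference of the ERβ effects ran from -0.015 to 0.87 there and from -0.020 to 0.84 at FOXA1. The limma fit without trend, pseudocounts of 0.5 and 2, a mean of at least 0.5 and background median scaling moved no total of calls at the 8 loci by over 1.5 times. A mean of at least 0.5 tested 34 bins at the 8 loci. Lower calls there went from 5 to 8 between the mock groups (6730 of all 30544) and from 3 to 5 between the ERβ groups (2879 of all 30544).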
